A study of Canis lupus familiaris with 6 samples.

Results

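The suppressors of cytokine signaling (SOCS1 to SOCS7 and CISH) and the protein inhibitors of activated STAT (PIAS1 and PIAS3) were examined on canine oligonucleotide microarrays. Members were all non-control probes whose gene name in the scanner output equals 1 of these 10 symbols. They were 16 of 43603 probes and covered 8 of the 10 genes, out of 35582 gene names on the array, with 5 probes for SOCS5, 4 for PIAS1, 2 for SOCS6 and 1 each for SOCS1, SOCS3, SOCS7, CISH and PIAS3. No probe carried SOCS2 or SOCS4 as its gene name. All 16 passed the filter on low intensity, as did 40861 probes in all.

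The cells were 3 canine mammary tumor cell lines, the anaplastic cancer line P114, the simple carcinoma line CMT-U27 and the spindle cell tumor line CMT-U309, all kept in RPMI medium with fetal bovine serum. In the co-culture group a line shared its medium with myeloid-derived suppressor cells (MDSCs), which had been sorted from the blood of healthy dogs and were held in tissue culture inserts. The monoculture group was the same line alone. Co-culture lasted at least 72 h according to the labels, and the methods give a shorter time. Both RNAs of a line were labelled with Cy5 and Cy3 and hybridized together, and the dyes were exchanged on the other array of that line (6 arrays and 12 channels in all). A line's arrays carry the same pair of RNAs, so n is 3 lines, and nothing in the labels says that a line was cultured more than once.

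SOCS proteins are made in response to cytokines and act back on the receptor, JAK kinase and STAT pathway that induced them. SOCS1 and SOCS3 can inhibit JAK kinases directly, SOCS3 being recruited mainly to receptors of the IL-6 family, and CISH is known for its response to STAT5. All SOCS proteins carry an SH2 domain and a SOCS box, which binds elongins and a cullin to form a ubiquitin ligase. PIAS proteins act in the nucleus, where they bind STATs and promote attachment of the small modifier SUMO to other proteins. The comparison of both culture conditions asks how tumor cells respond to MDSCs, in a study that was concerned with STAT3 activation.

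Each level rests on 60-base probes, and 8 of them are shown because the results turn on them. Capitals mark G and C. All intervals are those given in the files on the dog build canFam2, and each sequence has an open reading frame over its length.
SOCS3 (NM_001031631, chr9:5856878-5856937): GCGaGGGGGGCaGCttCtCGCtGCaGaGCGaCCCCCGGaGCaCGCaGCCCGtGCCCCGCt
SOCS1 (ENSCAFT00000030021, chr6:34554436-34554495): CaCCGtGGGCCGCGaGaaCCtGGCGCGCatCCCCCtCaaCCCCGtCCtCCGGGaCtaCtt
CISH (ENSCAFT00000016332, chr20:41763938-41763997): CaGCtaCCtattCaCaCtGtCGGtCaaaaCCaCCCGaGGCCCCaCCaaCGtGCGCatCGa
SOCS5 probe 2 (ENSCAFT00000004140, chr10:52099694-52099753): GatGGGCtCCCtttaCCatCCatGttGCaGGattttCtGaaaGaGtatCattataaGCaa
SOCS6 probe 1 (XM_533377, chr1:11085740-11085799): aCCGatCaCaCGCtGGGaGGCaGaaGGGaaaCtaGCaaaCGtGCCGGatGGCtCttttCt
SOCS7 (ENSCAFT00000026342, chr9:27106570-27106629): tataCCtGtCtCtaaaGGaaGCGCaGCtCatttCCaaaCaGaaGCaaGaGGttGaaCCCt
PIAS1 probe 2 (ENSCAFT00000037136, chr30:35183290-35183349): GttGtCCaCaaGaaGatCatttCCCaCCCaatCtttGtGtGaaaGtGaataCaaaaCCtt
PIAS1 probe 4 (ENSCAFT00000037136, chr30:35213206-35214502): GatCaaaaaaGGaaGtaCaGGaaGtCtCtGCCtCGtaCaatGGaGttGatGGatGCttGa
The SOCS3 probe holds 46 G or C among its 60 bases (76.7%), and 0.259% of all probes hold a larger share. The median over all probes was 43.3%, and among the members only SOCS1 (70%) came near to SOCS3. PIAS1 probe 4 differs from the other PIAS1 probes in that its interval in the files is 1297 bases long for a 60-base sequence. Of the PIAS1 probes not shown, probes 1 and 3 share 57 bases and are not independent of each other, while no other pair of probes of a gene shared a run of more than 8 bases.

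Signals are the processed signals of the scanner software, scaled so that the median of every channel is the same, in arbitrary units. Whether a spot is well above background was read from the software's own flag, and 14 of the 16 probes were well above background in all 12 channels, against 50.8% of all probes tested. The exceptions were SOCS3 with 8 channels and SOCS7 with 4. The share of spots well above background was 53.0 to 61.2% in the co-culture channels and 69.0 to 75.3% in the monoculture channels where co-culture RNA carried Cy3. Where it carried Cy5 these shares were 61.3 to 76.9% and 55.2 to 81.0%. Over all probes, the ratios of the 2 arrays of a line correlated at -0.39 for P114, 0.26 for CMT-U27 and -0.09 for CMT-U309, with those of P114 opposed to each other. The P114 array with co-culture in Cy5 correlated with the arrays of the other lines at -0.51 to 0.03, and the other P114 array at -0.21 to 0.51. SOCS3 and the other members are therefore also given without P114 in the comparison of culture conditions. The epithelial markers EPCAM and KRT19 were brighter in CMT-U27, with log2 signals of 15.42 and 16.03 against 6.68 and 4.71 in CMT-U309 and 9.18 and 9.67 in P114. KRT14, a keratin of basal epithelial cells, was dimmest in CMT-U27, at 11.05 against 11.86 in P114 and 12.59 in CMT-U309. The collagen gene COL1A1 was at 3.69 in CMT-U27, 16.22 in CMT-U309 and 14.85 in P114.

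In co-culture, SOCS3 was the only member to pass the thresholds of the study's methods in limma, and it was lower than in monoculture. The fitted mean over the 3 lines was 2.02-fold, but 3 of the 6 co-culture spots behind it were not well above background and without their arrays the log2 mean was -0.25 and not called. With the methods' t-test SOCS3 had p 0.0733 (n = 3 lines, not an exact test), and no member passed. The thresholds ask for an unadjusted p below 0.05 together with a change of more than 2-fold, which 0.198% of all probes passed in the lower direction and 1.22% in either. The co-culture signals of SOCS3 in Cy5 were 31.1 for P114, 24.3 for CMT-U27 and 24.9 for CMT-U309. In Cy3, where none was well above background, they were 19.3, 6.02 and 8.03 in the same order. The monoculture signals were all close together, at 30.6 and 36.4 in P114, 34.3 and 29.96 in CMT-U27, and 30.4 and 34.6 in CMT-U309. The co-culture signals were therefore all below the monoculture signals in CMT-U27 and CMT-U309, while in P114 the groups overlapped.

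**Figure D1:**
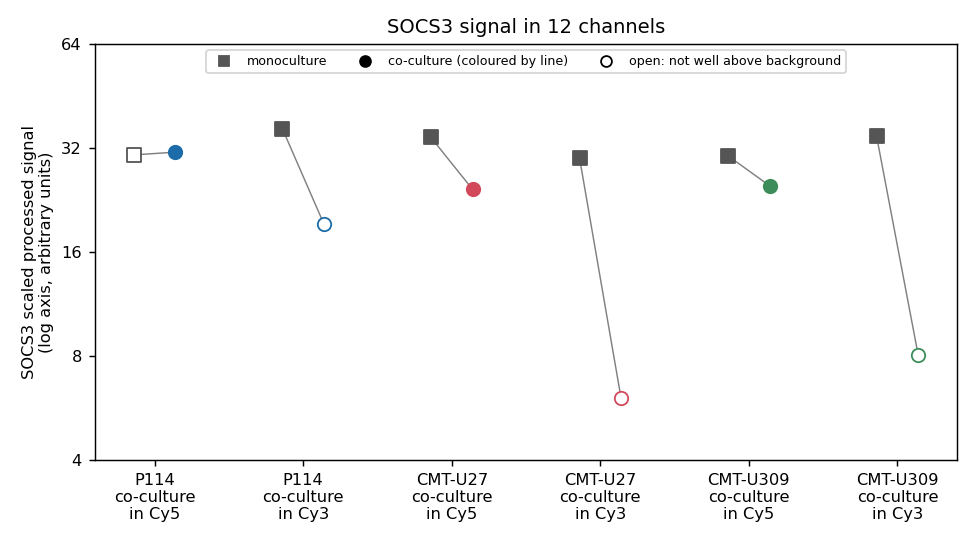
SOCS3 scaled processed signal (log axis, arbitrary units) in the 12 channels, with squares for monoculture and circles for co-culture of the same array joined by a line; open symbols mark spots not well above background. Monoculture lies between 29.96 and 36.4 on all 6 arrays, whereas co-culture falls to 6.02 and 8.03 on 2 of the 3 arrays on which its RNA carried Cy3.

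As log2 ratios of co-culture to monoculture, P114 gave 0.03 and -0.92, CMT-U27 gave -0.50 and -2.31, and CMT-U309 gave -0.29 and -2.11, with co-culture in Cy5 first and in Cy3 second. SOCS3 was thus lower on 5 of 6 arrays, as were SOCS5 probes 1 and 3, and 13.1% of all probes were lower on at least 5. In each line the array with co-culture in Cy3 gave the lower SOCS3 ratio. The mean was -0.25 ± 0.26 (SD) over the 3 arrays with co-culture in Cy5 and -1.78 ± 0.75 over the 3 arrays with it in Cy3. The mean of the 3 lines was -1.02 (SE 0.27, limma) with a 95% interval from -1.62 to -0.42, an SD between lines of 0.50, an unadjusted p of 0.00377 and an adjusted p of 0.499 over all probes. After adjustment, 0 probes of the whole array passed in limma, where 9.93% had an unadjusted p under 0.05. SOCS3 is in the list of changed genes that the study chose on these samples, so its direction here is not independent evidence.

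SOCS3 was close to the detection limit of the arrays. It was well above background in 5 of 6 monoculture channels and in 3 of 6 co-culture channels, namely in all 3 with Cy5 and in 0 of the 3 with Cy3. Before any processing the spot was 1.37 to 2.22 times its local background in the co-culture channels and 1.51 to 4.07 times in the monoculture channels. In the Cy3 co-culture channels the software flagged as well above background no signal under 22.7 for P114, 21.5 for CMT-U27 and 33.8 for CMT-U309. The SOCS3 signals of 19.3, 6.02 and 8.03 lie under these values, so their size is not well determined, and in CMT-U309 the software had put a surrogate value in place of the signal. A low SOCS3 signal in these bulk samples cannot tell fewer SOCS3-expressing cells from less SOCS3 RNA per cell.

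The SOCS3 call was lost without CMT-U27 (-0.82), without CMT-U309 (-0.93), or without the Cy3 co-culture array of P114 (-0.86), CMT-U27 (-0.71) or CMT-U309 (-0.71), and without all 3 of these arrays, as above. Without the Cy5 co-culture array of P114 the mean was -1.17 and SOCS3 was called, where 1835 of all probes were called higher and 703 lower. Without P114 it was -1.30 with an unadjusted p of 0.000288 in limma, and SOCS3 was again the only 1 of 16 probes called. Calls over all probes also rose in that fit, to 2097 higher and 575 lower, from 419 and 81 with all lines. With normexp background correction (offset 50) and loess normalization in place of the processed signals, the mean was -0.056. The offset is added to both channels and draws ratios of dim spots toward 0. Raw SOCS3 spots read 35.0 to 93.5 with background included, so this setting left little room for a 2-fold change. The part of each step was not tested. SOCS3 was lower under all 21 alternatives and passed the thresholds under 13.

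The distance between the arrays of a line was larger for SOCS3 than for most probes. The distance was 0.94 for P114, 1.82 for CMT-U27 and also 1.82 for CMT-U309, where the median over all probes was 0.52, 0.42 and 0.48 in that order. A larger one was seen for 30.8%, 7.49% and 10.3% of all probes. Probes with a G and C share over 75%, of which 155 were tested, had median ratios of -0.41 and 0.26 for P114, 0.26 and 0.31 for CMT-U27, and 0.06 and 0.32 for CMT-U309, in the order of dyes given above. On the 3 Cy3 co-culture arrays these probes thus lay above 0 and SOCS3 below it. The part of dye, spot intensity and base composition in the SOCS3 ratios was not tested.

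The other 15 probes did not pass the thresholds, and none had an unadjusted p under 0.05 (limma, smallest 0.0732). Their mean log2 fold changes ran from -0.27 to 0.31 with a median of 0.07, against 0.01 over all probes, and 11 were above 0 and 4 below. The 14 that were well above background in all channels each had a 95% interval within 2-fold in both directions, with a lowest bound of -0.64 for SOCS5 probe 1 and a highest of 0.66 for PIAS1 probe 2. SOCS7, the remaining one, was too dim in P114 and CMT-U309 for an interval to be read. Without P114 the 15 ran from -0.46 to 0.41, the highest being the fitted value of the dim SOCS7, and again none passed, but 2 had an unadjusted p under 0.05 (limma), SOCS5 probe 1 at -0.46 (p 0.0059) and PIAS1 probe 4 at 0.35 (p 0.00182). With the methods' t-test PIAS1 probe 2 had p 0.0123 and SOCS1 p 0.0383 (not exact tests), both under 2-fold. Of their 90 single ratios only 1 exceeded 2-fold, that of PIAS3 on a P114 array, compared with 2 of the 6 SOCS3 ratios. Both of these SOCS3 ratios came from co-culture spots not well above background, while 14 of the 15 other probes were brighter. The share of all probes, or of equally dim probes, past 2-fold on single arrays was not counted. SOCS3 lay below all 15 on 3 arrays, namely both arrays of CMT-U309 and the Cy3 co-culture array of CMT-U27. On the Cy5 array of CMT-U309 this was a near tie, at -0.288 against -0.286 for SOCS5 probe 3. Of all probes, 26.5% lay below SOCS3 on that array, 1.25% on the Cy3 array of CMT-U309 and 0.718% on that of CMT-U27. SOCS3 lay above 1 of the 15 on the other CMT-U27 array (17.1% of all probes) and the Cy3 array of P114 (6.95%). On the Cy5 array of P114 it lay above 7 (52.9%).

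**Figure D2:**
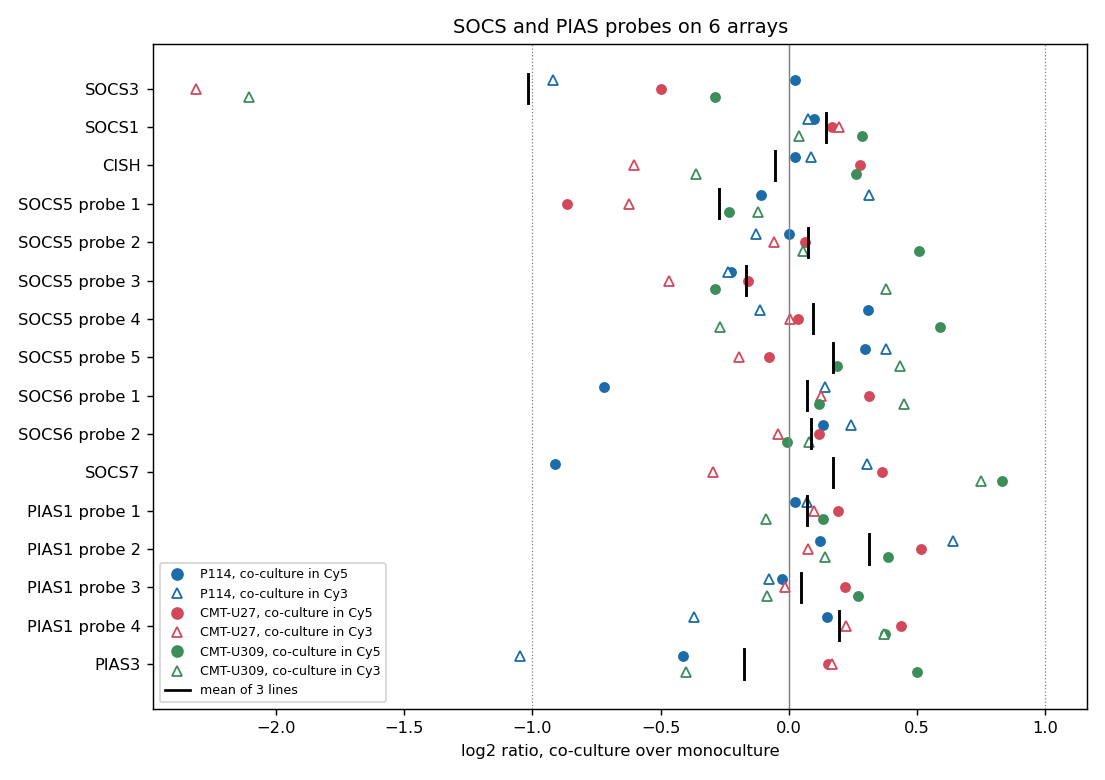
Log2 ratio of co-culture over monoculture (x axis) of the 16 probes on each of 6 arrays, with filled circles for co-culture RNA in Cy5, open triangles for Cy3, colors for the lines, black bars for the mean of 3 lines and dotted lines at 2-fold. SOCS3 at -1.02 stands to the left of the other 15 probes, which lie between -0.27 and 0.31, and its triangles are to the left of its circles in every line.

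SOCS1, which like SOCS3 can block JAK kinases directly, did not share the pattern of SOCS3. Its co-culture signals were 504, 423, 529, 407, 518 and 541 over the arrays P114, CMT-U27 and CMT-U309, Cy5 before Cy3 in each line. The monoculture signals in the same order were 471, 402, 470.1, 356, 425 and 527. Co-culture was higher on all 6 arrays, but by little, with ratios from 0.04 to 0.29 and a mean of 0.14 (SE 0.12, limma adjusted p 0.651). The ranges of both groups overlapped, and the interval ran from -0.12 to 0.41.

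CISH, a target and inhibitor of STAT5 signaling, had a mean of -0.05 (SE 0.17, limma adjusted p 0.920) with an interval from -0.43 to 0.33. Its ratios were 0.03 and 0.09 in P114, 0.28 and -0.60 in CMT-U27, and 0.26 and -0.36 in CMT-U309. In the CMT lines the sign thus changed with the dye, as the Cy3 array gave the lower ratio. Among the members CISH had the profile over 6 ratios most like that of SOCS3, with a Pearson r of 0.89, where the other 14 probes lay between -0.57 and 0.69. These points share arrays and dyes, and r is given only as a description. Over 15776 gene names with a probe well above background in all channels, the 3 highest r with SOCS3 were 0.990 to 0.993, at probes that carry transcript identifiers and no gene symbol, and their mean log2 fold changes were -0.11, -0.10 and 0.21.

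SOCS5, SOCS6 and SOCS7 have long amino-terminal regions and are less bound to the JAK pathway than SOCS1 and SOCS3, with roles at growth factor receptors known for SOCS5 and SOCS6. The 5 SOCS5 probes gave means of -0.27, 0.07, -0.17, 0.09 and 0.17 in co-culture, so 3 were above and 2 below 0. Probe 1, the lowest, had ratios of -0.86 and -0.62 in CMT-U27, while in the same line probes 2 and 4 stayed between -0.06 and 0.06. The probes of this gene thus did not share a direction. The SOCS6 probes gave 0.07 and 0.09. For SOCS7 no mean is given, since its spots in P114 and CMT-U309 were not well above background, and in CMT-U27, where they were, the ratios were 0.36 and -0.30.

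PIAS1, an E3 ligase for SUMO, gave means of 0.07, 0.31, 0.05 and 0.20 at its 4 probes in co-culture. All were above 0, yet none passed the thresholds. Probe 2, the highest, was above 0 on all 6 arrays with ratios from 0.08 to 0.64 (SE 0.16, limma adjusted p 0.511). PIAS3, known as an inhibitor of STAT3, had ratios of -0.41 and -1.05 in P114, 0.15 and 0.17 in CMT-U27, and 0.50 and -0.40 in CMT-U309. It was below 0 on both arrays of P114 and above 0 on both of CMT-U27, and the mean of -0.17 (SE 0.19) had an interval from -0.61 to 0.26.

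The lines themselves differed in 4 of the genes. Against both other lines, CMT-U27 was lower at 4 of 5 SOCS5 probes and higher at both SOCS6 probes, SOCS7 and 3 of 4 PIAS1 probes. The fourth PIAS1 probe was called only between CMT-U27 and CMT-U309, with CMT-U309 the highest line. For these comparisons the dyes were averaged, which left 6 values, and a difference was called at a limma adjusted p under 0.05 and a fold over 2. Between P114 and CMT-U27, 11 of 16 probes were called, and between CMT-U27 and CMT-U309 also 11, where 24.2% and 28.9% of all probes were called. The background was 11.6% higher and 12.6% lower in P114 than in CMT-U27, and 15.6% higher and 13.3% lower in CMT-U27 than in CMT-U309. Against both lines at once, 6 member probes were called higher in CMT-U27 (8.86% of all probes) and 4 lower (6.64%). Several of these probes measure 1 gene, so the probe counts hold fewer genes. Between P114 and CMT-U309 no member was called by limma, at a background of 14.5% (7.6% higher and 6.91% lower in P114), and 2 had an adjusted and an unadjusted p under 0.05, PIAS1 probes 1 and 4, both under 2-fold. Each line lay on a slide of its own, so line and slide cannot be told apart.

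**Figure D3:**
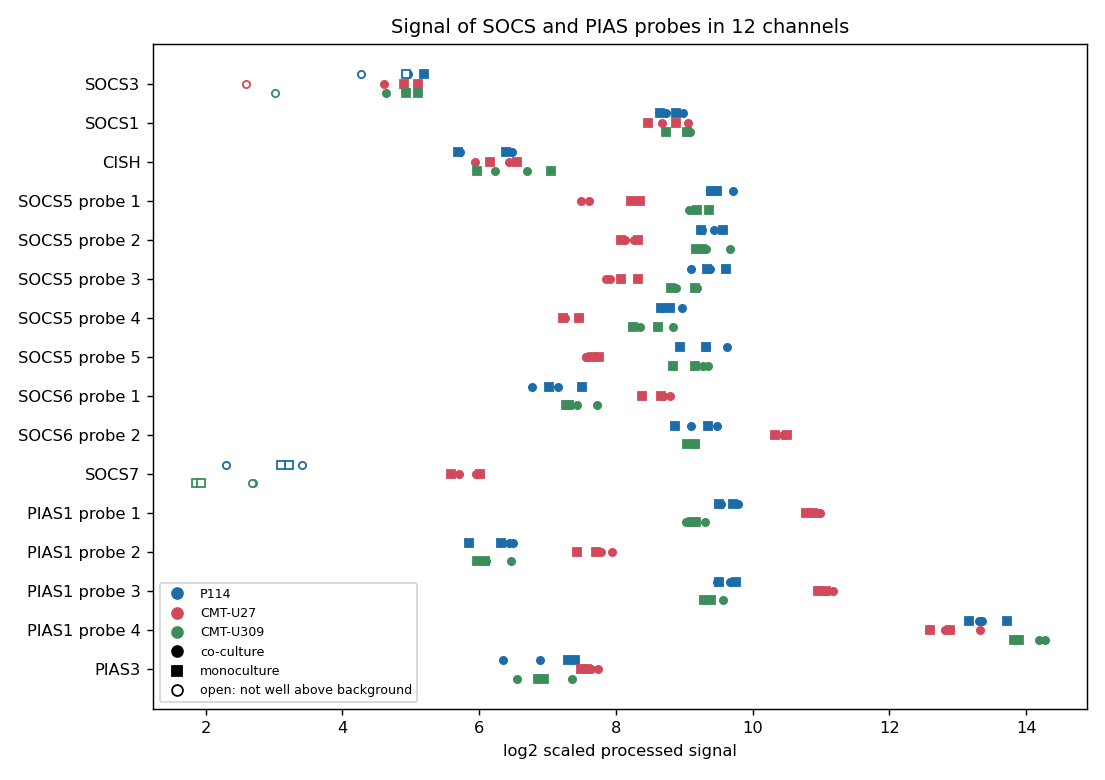
Log2 scaled processed signal (x axis) of the 16 probes in 12 channels, with colors for the lines, circles for co-culture, squares for monoculture and open symbols for spots not well above background. CMT-U27 lies to the left of both other lines at all 5 SOCS5 probes and to the right at both SOCS6 probes, SOCS7 and PIAS1 probes 1 to 3. The share of all probes whose channels are separate in this way was not counted.

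For SOCS5 probe 2, the brightest of the gene, the signals in P114 were 609.7 and 693 in co-culture and 609.1 and 758 in monoculture. In CMT-U309 they were 817, 639.7, 575 and 616. The CMT-U27 signals were 282, 308, 269.97 and 320.4, which lie below every signal of the other lines. P114 exceeded CMT-U27 by 1.17 on the log2 scale at this probe (SE 0.16, limma adjusted p 0.000192). Over the 5 probes, the difference between P114 and CMT-U27 ran from 1.17 to 1.66, all called. Without scaling, probes 2, 3 and 4 were at 0.71, 0.85 and 0.96 and not called, and with normexp, loess and Aquantile probes 1, 2 and 4 were at 0.99, 0.92 and 0.95 and not called. Between CMT-U27 and CMT-U309 it ran from -1.52 to -0.97, and 4 were called, since probe 3 stayed just under 2-fold. Without replicate 1 the difference at probe 2 was -0.998 and it was not called, and without replicate 2 probe 3 was called at -1.02, while normexp, loess and Aquantile took the call from probes 1, 4 and 5 (-0.88, -0.80 and -0.95). P114 and CMT-U309 differed by 0.02 to 0.35, and no SOCS5 probe was called. The 5 probes shared no run of more than 8 bases, and they lie within chr10:52098341-52100279, and so read separate places of the transcript.

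For SOCS6 probe 1 the signals in CMT-U27 were 413, 444, 332 and 406. Those in P114 were 109.6, 142, 181 and 129, and those in CMT-U309 were 173, 211, 159 and 155. Every CMT-U27 signal was above every other. CMT-U27 was above P114 by 1.52 on the log2 scale (SE 0.19, limma adjusted p 0.000143) and above CMT-U309 by 1.20 (SE 0.19, adjusted p 0.000594). At probe 2 CMT-U27 was above P114 by 1.24 and above CMT-U309 by 1.31. Without replicate 2 the difference P114 minus CMT-U27 at this probe was -0.97 and not called. With normexp, loess and Aquantile neither probe was called, at -0.80 and -0.86 for P114 minus CMT-U27 and 0.58 and 0.81 for CMT-U27 minus CMT-U309. Without scaling the latter was 0.89 at probe 1 and not called. P114 and CMT-U309 differed by -0.32 at probe 1 and 0.08 at probe 2.

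SOCS7 was well above background in CMT-U27 alone. Its signals there were 62.0, 52.3, 48.2 and 64.2, well above background in all 4 channels. In P114 they were 4.92, 10.6, 9.27 and 8.59, and in CMT-U309 6.43, 6.38, 3.61 and 3.79, and no channel of these lines was well above background. By estimated bounds, CMT-U27 was at least 2.8-fold higher than P114 and at least 5.83-fold higher than CMT-U309. These bounds set the CMT-U27 level against the lowest signal well above background in each channel of the dim line, after loess and Aquantile normalization. The limit of a single spot can lie above that lowest signal, so the bounds are not strict, and they were not tested. The limma adjusted p of 0.000238 (P114) and 4.12e-05 (CMT-U309) belong to the fitted differences of the scaled signals, which use the dim values. P114 and CMT-U309 were both not well above background at this probe, so no fold is given between them. With normexp, loess and Aquantile the fitted differences were under 2-fold (-0.52 for P114 minus CMT-U27 and 0.48 for CMT-U27 minus CMT-U309) and not called. The offset of 50 in that setting draws differences of dim spots toward 0.

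The probes of PIAS1 disagreed between lines. Probe 2 gave 246, 221, 172 and 209 in CMT-U27, against 86.8, 90.2, 79.7 and 57.9 in P114 and 88.5, 68.8, 67.6 and 62.5 in CMT-U309. CMT-U27 was above both at probes 1 to 3, by 1.27 to 1.46 over P114 and by 1.56 to 1.75 over CMT-U309 on the log2 scale, with limma adjusted p of 0.000194 or less. With normexp, loess and Aquantile probe 2 lost both calls (-0.62 for P114 minus CMT-U27, 0.66 for CMT-U27 minus CMT-U309) and probe 1 the first (-0.91). Probe 4 gave 10225, 7198, 7545 and 6170.5 in CMT-U27, with 19833, 18687, 15278 and 14435 in CMT-U309. There CMT-U27 was below CMT-U309 by 1.14 (SE 0.16, limma adjusted p 0.00019), a direction opposite to that of the other probes. Without replicate 2 that difference was -0.99 and was not called. Its P114 signals of 10190.2, 10462, 9194 and 13514 overlapped those of CMT-U27. Probes 1 and 3 overlap in sequence, so the 3 agreeing probes come from 2 places of the transcript, and which probe gives the level of PIAS1 was not tested.

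**Figure D4:**
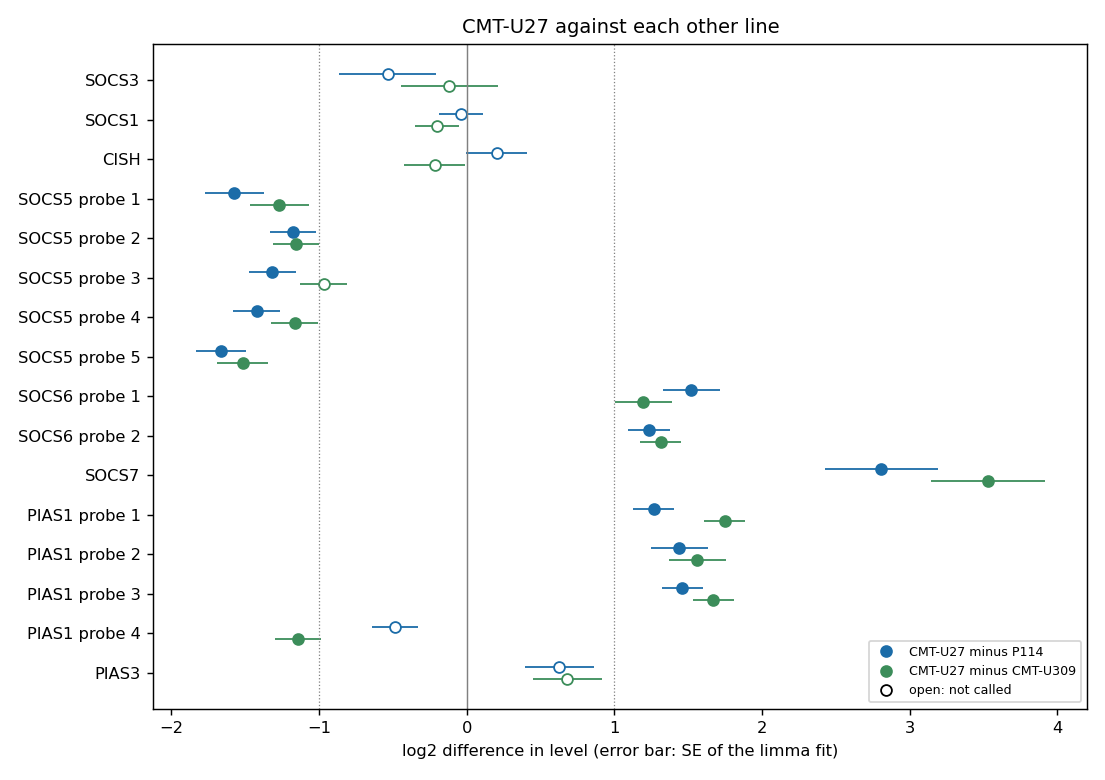
Log2 difference in level between CMT-U27 and each other line (x axis, bars: SE of the limma fit) for the 16 probes, with filled circles for called differences and dotted lines at 2-fold. The 5 SOCS5 probes lie left of 0, SOCS6 and SOCS7 right of it, and PIAS1 probe 4 lies opposite to PIAS1 probes 1 to 3; the SOCS7 points are fitted values and not bounds.

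SOCS3, SOCS1, CISH and PIAS3 were not called between any lines. The mean log2 level of SOCS3 in monoculture was 5.06 in P114, 5.02 in CMT-U309 and 5.00 in CMT-U27, and the lines overlapped. Over both conditions it was 4.84, 4.42 and 4.30, but these means hold 4 channels not well above background, so no order is read from them. SOCS1 was at 8.81, 8.77 and 8.97 and CISH at 6.07, 6.27 and 6.49 in P114, CMT-U27 and CMT-U309, again with overlapping channels. PIAS3 in CMT-U27 was above CMT-U309 by 0.68 (SE 0.24, limma adjusted p 0.0381), which is under 2-fold, and the channels of these lines did not overlap.

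SOCS2 and SOCS4 were each named in the description of 1 probe that carries a transcript identifier as its gene name. These probes were found after the files were read and are not members. In co-culture SOCS2 gave 0.15 (SE 0.16) and SOCS4 -0.27 (SE 0.15), with limma adjusted p of 0.730 and 0.543. The levels differed between the CMT lines, as SOCS2 was lower in CMT-U27 than in CMT-U309 by 1.23 on the log2 scale and SOCS4 was higher by 1.02. Another such probe, described as SOCS6, was higher in CMT-U27 than in P114 and CMT-U309 by 1.09 and 1.41, as were both SOCS6 members.

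Of the wider pathway, 147 genes in 9 lists were looked up, and 124 were measured, each at its brightest probe. In co-culture 2 passed the thresholds as higher and 0 as lower, where 1.03% and 0.198% of all probes did. The genes were IL28RA, a receptor chain for interferon lambda, and FGB, the fibrinogen beta chain. IL28RA was well above background in 2 of 12 channels and FGB in 1, so no fold is given for either (limma adjusted p 0.499 each). Without P114, 3 cytokine receptors and 1 gene of the SUMO pathway passed, and without all 3 Cy5 co-culture arrays 8 cytokine receptors did. Calls over all probes rose as well, from 419 higher and 81 lower to 2097 and 575 without P114. Without the Cy5 co-culture arrays they were 3260 and 2341. IL28RA, like SOCS3, is among the genes the study chose on these samples.

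JAK kinases and STATs, which the SOCS and PIAS proteins act on, had 7 of 11 genes measured and none called, with a median of 0.11. STAT3 gave -0.07 (SE 0.11), JAK2 0.41 (SE 0.17) and JAK1 -0.26 (SE 0.11), with limma adjusted p of 0.838, 0.499 and 0.499. Of genes known as STAT3 targets, 18 were measured with a median of 0.13. MYC at 0.47 and CCND1 at 0.44, both drivers of proliferation, stayed under 2-fold at a limma adjusted p of 0.499 each. JUNB went the other way, at -0.38 (SE 0.24, limma adjusted p 0.563). These STAT3 pathway genes were named for their roles after the values were seen.

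None of the 6 elongin, cullin and RING partners of the SOCS box was called (median -0.10), nor of 22 other SOCS-box proteins (-0.03). Without the Cy5 co-culture arrays 3 of the 22 were called, where 3260 of all probes were called higher and 2341 lower. In the SUMO pathway, in which PIAS proteins act, 0 of 13 were called (0.01), among them PIAS2 at 0.01 and PIAS4 at 0.20 (SE 0.43, limma). The 9 phosphatases and adaptors of the pathway (-0.06) and the 16 ligands (-0.0048) also held no call. The 28 cytokine receptors had a median of 0.04.

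Markers of myeloid cells, the other cells of the co-culture, were read because RNA from such cells would add to the signal. Of 13 measured, 0 passed the thresholds (1 without P114, 2 without its Cy5 co-culture array and 3 without all Cy5 co-culture arrays). Calls over all probes in these settings were 2097 higher and 575 lower, 1835 and 703, and 3260 and 2341, in the same order. Of the 13 markers, 2 were well above background in all 12 channels, and ITGAM, SPI1 and LYZ were so in none. Their summed log2 signal was 10.53 to 10.80 in co-culture and 10.59 to 10.74 in monoculture of P114, and 11.18 to 11.28 against 11.02 to 11.24 in CMT-U309. In CMT-U27 it was 13.72 to 13.74 in co-culture and 12.91 to 12.98 in monoculture, and its brightest gene there was S100A8, which epithelial cells can also express. Its part in the SOCS3 ratios was not tested.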

How the data were processed

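RNA of 3 canine mammary tumor lines in co-culture with MDSCs and in monoculture was measured on 6 two-colour Agilent arrays in dye-swap. The authors deposited scanner output of Feature Extraction (10.10.1.1 in the file headers, 10.7.3.1 in the submitters' processing notes) with the intensity of each spot, background-subtracted and dye-normalized, and a table of log10 ratios per array. From these, processed signals were scaled to a common channel median, outlier and control spots were left out, probes never brighter than 10 were dropped, and log2 ratios were averaged per dye-swap. Limma 3.58.1 in R 4.3.3 (lmFit, eBayes with an intensity trend) tested the mean of 3 lines against 0, and line differences with the culture condition as covariate. P was adjusted by Benjamini-Hochberg over all 40861 probes. Samples were grouped by the cell line, and channels by the condition, in the labels. Arrays with the same number in the labels share the dye of the co-culture RNA, and their deviations from the line means correlated at 0.36, 0.58 and 0.48, so the number pairs them by dye. With no second culture named, p-values for co-culture rest on the spread between these 3 lines, which limma moderates with that of all probes. The number of lines limits the precision. For line differences, p-values rest on how far the gap between the culture conditions varied from line to line. They do not measure the spread between repeat cultures of a line. Named genes were all members, with a gene represented by its brightest probe, up to 2 called genes per direction of each list, and the 3 genes most like SOCS3. Of the gene lists, 1 is not reported here. Members, lists and tests were chosen with earlier results of these data known. The alternatives, given in the closing section, were other background corrections, scalings, filters and fits, and each line or array left out. The test scripts were tested on simulated data. Scanner output was read with pandas 2.3.3 in Python 3.11.15, and plots were drawn with matplotlib 3.10.9.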

Additional observations from a re-analysis of the deposited data

Results flagged for a closer look

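Lines whose arrays all moved in opposite directions under co-culture were found for 2 of 16 member probes, where 22.7% of all probes tested had such lines. SOCS5 probe 5 was above 0 on both arrays of P114 and of CMT-U309 and below 0 on both of CMT-U27, with mean log2 ratios of 0.34, 0.31 and -0.13. These lines were apart by 0.473 and 0.445. PIAS3 was above 0 on both arrays of CMT-U27 (0.16) and below 0 on both of P114 (-0.73), which is a distance of 0.891. The differences between the lines were not tested.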

How the results depend on the processing

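SOCS3 kept its direction under all 21 alternatives and its call under 13. With normexp and loess it was -0.056 (unadjusted p 0.250, limma), where the offset left little room for a 2-fold change at this spot. With the ordinary t-test on the 3 line means it was -1.02 (p 0.0733), and neither setting gave a call. Leaving out lines, arrays or replicates gave -1.78 to -0.25, and 0 to 1 members called. Members called were 0 with normexp and loess and with the ordinary t-test. They were also 0 with only probes well above background in all channels of a condition, a filter that SOCS3 did not pass. With the replicate block of the paired arrays SOCS3 was -1.02 (limma, p 0.00107), and the block changed no other call of a member. That fit counts the 6 arrays as separate values although the arrays of a line carry the same RNAs, so its p overstates the replication. Calls over all probes, 419 higher and 81 lower, became 3 and 0 with normexp and loess and 27 and 11 with only bright probes. They were 82 and 35 with the ordinary t-test and 270 and 76 without a block over 6 arrays. With arrays or lines left out they were 31 to 3260 and 50 to 2341.

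Between lines, member probes called with any contrast were 12, and 6 with normexp, loess and Aquantile (3 for P114 and CMT-U27, 4 for CMT-U27 and CMT-U309). That setting also adds the offset of 50, which draws differences of dim probes toward 0. Without scaling 9 were called for P114 and CMT-U27, with SOCS5 probes 2 to 4 lost and PIAS3 gained (-1.09), and for CMT-U27 and CMT-U309 SOCS6 probe 1 was lost and SOCS5 probe 3 gained (-1.27). Between P114 and CMT-U309 3 were called (SOCS6 probe 1, CISH and PIAS1 probe 4, all lower in P114), while the median over all probes moved to -0.63. For the other contrasts it moved to -0.31 and -0.27. Leaving out lines or replicates gave 0 to 12 called, the 0 without CMT-U27. With the replicate block, in a fit that counts the 12 channels as separate values, the calls were 11, 0 and 11. No called difference changed sign. Depth is not defined for arrays, and SOCS3 and SOCS7 were limited by their signal over background.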
